A study of Mus musculus with 12 samples.

Results

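The transcripts of the renin-angiotensin system were followed in whole ovaries of lethal yellow (LY) and black mice. The set was fixed by gene symbol and held 8 genes, namely angiotensinogen (Agt), renin (Ren1), angiotensin converting enzyme (Ace), the angiotensin receptors Agtr1a, Agtr1b and Agtr2, the Mas receptor (Mas1) and the (pro)renin receptor (Atp6ap2). A probe was used where the platform annotation gave it exactly 1 gene symbol and that symbol was one of these. This rule found 6 probes, 1 for each of 6 genes, among 36227 probes on the array, of which 21615 carried 1 gene symbol. Ren1 had no probe of its own, and Agtr2 was listed only on a probe shared with Snu13. That probe and a pair of others that list Ace beside other genes were not used.

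The question was which ovarian transcripts differ with the lethal yellow allele before and after obesity has set in. Obese LY mice 180 days old (n = 3) were set against black mice of that age (n = 3), and LY mice 90 days old (n = 3) against black mice of that age (n = 3). LY mice carry the lethal yellow allele of agouti on a C57BL/6J background (Ay/a), which expresses agouti throughout the body, and black littermates are a/a. The deletion that makes the allele also removes coding sequence of the neighbouring gene Raly, so LY and black mice differ at more than agouti. All mice, black mice included, were females given the GnRH antagonist Antide (10 µg/g on days 1 and 4), which suppresses their own gonadotropin release, and then equine chorionic gonadotropin (eCG, 1 IU per 5 g body weight), which drives follicle growth. Ovaries were trimmed of fat and taken 36 h after eCG, and 1 ovary of each mouse was hybridized to its own one-colour CodeLink array. Values are relative intensity units, in which each array was divided by its own median, and 0.2 units is the limit of sensitivity. Each array of a group is a separate mouse.

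Angiotensinogen is the only precursor of the angiotensin peptides. Renin cuts it to angiotensin I, which angiotensin converting enzyme turns into angiotensin II, the main active peptide. Through the type 1 receptor it constricts vessels and raises aldosterone, and the type 2 receptor largely opposes these effects. Liver is the main source of circulating angiotensinogen and fat is another, but several tissues make their own. Ovaries of several mammals contain prorenin and angiotensin receptors, and in the rat the type 2 receptor is found on granulosa cells of follicles that degenerate.

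The labels held for the mutated locus. Agouti stood at 96.7, 101 and 111 units in 180-day old LY ovaries and at 0.169, 0.368 and 0.345 units in black ovaries, and it averaged 97.2 units in 90-day old LY ovaries and 0.295 units in black ovaries. Both Raly probes were lower in every LY ovary than in any black ovary of its age, at 0.468 and 0.562 of the black mean at 180 days and 0.567 and 0.603 at 90 days, although neither passed at 180 days (adjusted p = 0.204 and 0.169) or at 90 days (adjusted p = 0.246 and 0.170). Arrays of a group correlated at 0.970 or above, between 81.4% and 83.4% of probes on an array reached 0.2 units, and no pair of arrays held identical values. The array of 90-day old black replicate 2 had 503 missing values and the other arrays had fewer. The median array value as deposited was 1.00 on 180-day and 1.04 on 90-day arrays. The authors ran the 180-day arrays first and the 90-day arrays afterwards, so effects of age cannot be told apart from those of the set of slides.

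Promoter sequences are shown for 2 members. Agt was taken because it differed most between LY and black ovaries among the members tested. Atp6ap2 was taken because its promoter held GC and CCAAT boxes but no TATA box. Each is the 250 bases before the RefSeq start of the gene on GRCm38.p6. Capitals mark matches on either strand to TATAAA (the TATA box), CCAAT (the CCAAT box), GGGCGG (the GC box) and AGAACA (the core to which the glucocorticoid receptor binds).

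Agt, chr8:124569707-124569956, minus strand: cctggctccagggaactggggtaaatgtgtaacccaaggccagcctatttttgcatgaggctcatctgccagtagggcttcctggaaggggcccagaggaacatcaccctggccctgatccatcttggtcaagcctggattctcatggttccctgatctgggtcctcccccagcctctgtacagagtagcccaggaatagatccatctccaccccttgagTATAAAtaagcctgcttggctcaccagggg
Atp6ap2, chrX:12587509-12587758, plus strand: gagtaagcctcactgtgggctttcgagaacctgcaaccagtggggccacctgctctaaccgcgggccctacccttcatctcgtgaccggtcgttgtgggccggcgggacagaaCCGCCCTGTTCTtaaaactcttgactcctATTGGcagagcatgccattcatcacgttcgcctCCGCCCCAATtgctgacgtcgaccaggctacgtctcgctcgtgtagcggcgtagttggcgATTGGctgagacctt

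The Agt stretch was 55.6% GC and held 1 match, a TATA box beginning at position -30, where -1 is the base before the start. The Atp6ap2 stretch was 59.2% GC and held 3 CCAAT boxes, 2 GC boxes and 1 glucocorticoid receptor core but no TATA box. A GC box and a CCAAT box there share 1 base, and the other GC box lies directly beside the glucocorticoid receptor core. Of 32851 mouse promoters of this length, 12.4% held a TATA box, 33.8% a CCAAT box, 32.7% a GC box and 16.1% the glucocorticoid receptor core, and the median GC content was 52.4%. Ren1 and Agtr1b each also had 1 TATA box on the coding strand, at -29 and -31. A match is a description of these letters and not a site of binding.

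Agt, the substrate of the system on chromosome 8 (124556587 to 124569706 on GRCm38.p6, minus strand), was lower in 180-day old LY ovaries and level with black ovaries at 90 days. At 180 days it stood at 4.44, 4.26 and 4.39 units in LY ovaries and at 7.94, 8.41 and 7.08 units in black ovaries. All 3 LY ovaries lay below all 3 black ovaries. At this age 22.6% of probes separated LY from black ovaries without overlap, and 8.36% did so with LY lower. At 90 days Agt stood at 12.1, 12.4 and 13.4 units in LY ovaries and at 12.1, 14.3 and 10.3 units in black ovaries, and the groups overlapped, whereas 16.5% of probes separated the groups at this age.

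The Agt level averaged 4.37 ± 0.0927 units in 180-day old LY mice and 7.81 ± 0.678 units in black mice (SD, n = 3 each), a ratio of 0.559. The limma fit gave a log2 difference of -0.84 (SE 0.12, 95% interval -1.10 to -0.57), which is 0.561-fold with an interval of 0.466 to 0.674. Its p was 3.06e-05 and its adjusted p over all 31359 probes tested was 0.0512, just outside the threshold of 0.05. With this test 14 probes, or 0.0446%, passed at 180 days, 13 of them higher in LY mice, and none was a member of the renin-angiotensin set. At an unadjusted p under 0.05, 3753 probes (12%) passed, and of the 5 members tested only Agt was among them. Agt had the 17th smallest p of all probes and the 3rd smallest of those lower in LY mice. The size of the difference was less unusual, since 325 probes (1.04%), Agt included, had a log2 difference this low or lower.

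The adjusted p of Agt moved across 0.05 with the way the values were treated, while the difference itself barely moved. Over 10 other settings the log2 difference stayed between -0.84 and -0.82, and Agt passed in 6 of them, with adjusted p-values between 0.00815 with an intensity trend in the prior and 0.195 with the methods' t-test after Benjamini-Hochberg adjustment. When each array was left out in turn the difference ranged from -0.90 to -0.78 and the adjusted p from 0.0400 to 0.196. Agt passed without 90-day old black replicate 2 (0.0400) and without 90-day old black replicate 3 (0.0449), and in no other of these 12 fits. Neither of these arrays enters the 180-day means, and both enter the shared estimate of the spread.

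**Figure D1:**
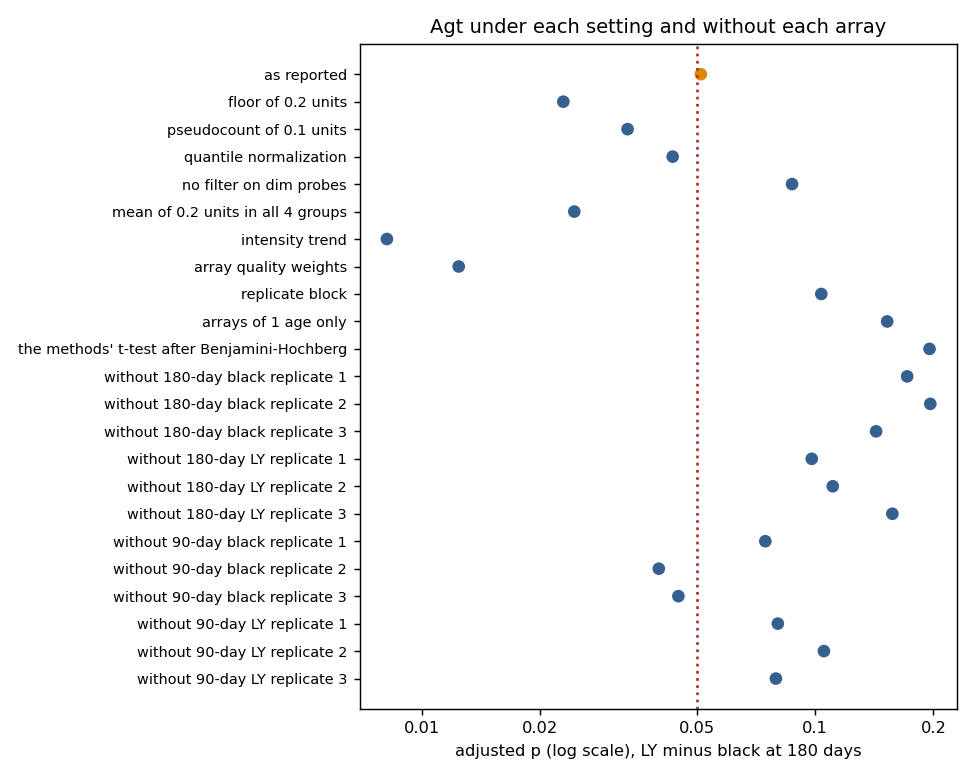
Adjusted p of the Agt difference at 180 days (LY minus black) on a log axis, as reported, under 10 other settings and without each of 12 arrays. The dotted line is 0.05, which 6 settings and 2 of the fits without an array passed.

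The spread of Agt among 180-day old LY ovaries was small. The coefficient of variation was 2.12% in LY ovaries, against 8.69% in black ovaries, where probes at 1 unit or above had a median of 7.18% in LY and 7.35% in black ovaries. With 3 arrays a group these coefficients are themselves imprecise.

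At 90 days Agt averaged 12.6 ± 0.656 units in LY mice and 12.2 ± 2.03 units in black mice (SD, n = 3 each). The log2 difference was 0.06 (SE 0.12, 95% interval -0.21 to 0.32, adjusted p = 0.883). The interval leaves room for a small difference either way but not for one as large as that at 180 days. The difference between ages in the genotype effect was tested by the interaction term, which was -0.89 on the log2 scale (SE 0.17, 95% interval -1.27 to -0.52, adjusted p = 0.0984). No probe passed for the interaction in this fit, 3799 (12.1%) had an unadjusted p under 0.05, and 0 to 198 passed under other settings. With an intensity trend in the prior the interaction of Agt had an adjusted p of 0.0319, and under the other 7 settings it lay between 0.0619 and 0.174. Averaged over both ages, Agt was lower in LY mice by a log2 difference of -0.39 (SE 0.08, adjusted p = 0.129), and 2 probes (0.00638%) passed in this comparison. An exact two-sided permutation test of this mean, with labels exchanged within each age, gave p = 0.065 over 400 regroupings, where 0.005 is the smallest it can give. At 1 age alone, 3 mice against 3 cannot go below 0.1.

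Agt was also lower in 180-day than in 90-day old ovaries of both genotypes. The 180-day mean was 0.346 of the 90-day mean in LY mice and 0.638 of it in black mice. All 6 ovaries of 180 days lay below all 6 of 90 days, as was the case for 16.0% of probes. The fitted log2 difference over both genotypes was -1.09 (SE 0.08), or 0.471-fold, with an adjusted p of 1.57e-06. Of all probes 59.3% passed in this comparison, 33.8% higher and 25.4% lower at 180 days. Here and below, age cannot be told apart from the set of slides.

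**Figure D2:**
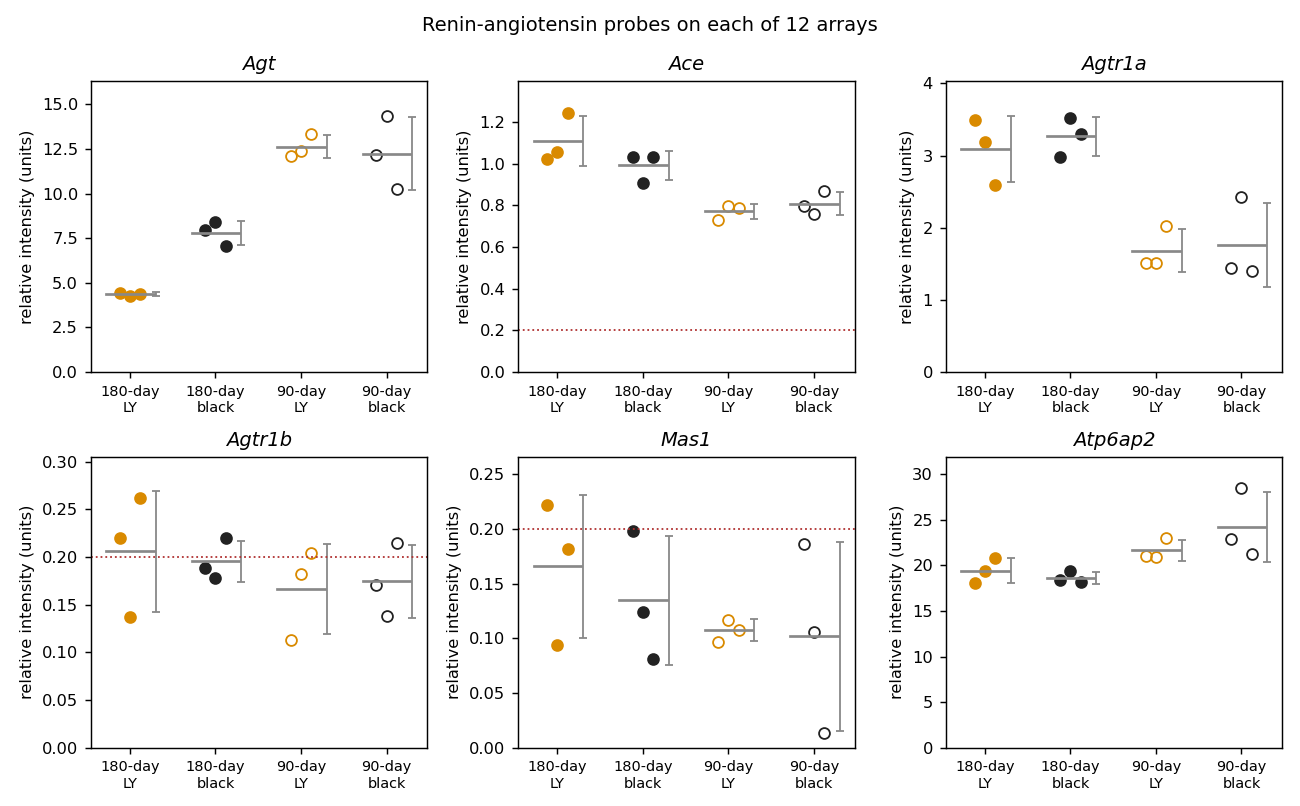
Relative intensity of the 6 renin-angiotensin probes on each of 12 arrays, with the group mean (bar) and SD (bracket at the right, n = 3). The dotted line in the panels of Ace, Agtr1b and Mas1 marks the limit of 0.2 units; in 180-day old LY ovaries Agt stood at 4.26 to 4.44 units, below every other ovary, while the other probes overlapped between LY and black ovaries of an age.

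Ace, the peptidase that makes angiotensin II (chromosome 11), did not separate LY from black ovaries. It stood at 1.02, 1.06 and 1.24 units in 180-day old LY ovaries and at 1.03, 0.909 and 1.03 units in black ovaries. At 90 days it stood at 0.731, 0.796 and 0.786 units in LY ovaries and at 0.794, 0.759 and 0.869 units in black ovaries. The groups overlapped at both ages. The log2 difference was 0.16 at 180 days (SE 0.10, 95% interval -0.07 to 0.38, adjusted p = 0.578) and -0.07 at 90 days (adjusted p = 0.828). Ace was higher at 180 than at 90 days, at 1.33-fold (log2 difference 0.41, SE 0.07, adjusted p = 0.000616). The 180-day ovaries lay above the 90-day ovaries without overlap, as did 20.6% of probes.

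Agtr1a, the main type 1 receptor of rodents, through which angiotensin II constricts vessels (chromosome 13), did not separate LY from black ovaries, and its intervals were wide. It stood at 3.49, 3.18 and 2.59 units in 180-day old LY ovaries and at 2.98, 3.51 and 3.30 units in black ovaries. At 90 days it stood at 1.51, 1.51 and 2.03 units in LY ovaries and at 1.44, 2.43 and 1.40 units in black ovaries. The log2 difference was -0.09 at 180 days (SE 0.21, 95% interval -0.56 to 0.38, adjusted p = 0.908) and -0.03 at 90 days (adjusted p = 0.974). A log2 difference of 0.38 in either direction at 180 days lies inside the interval, so one of that size could not have been told from none. Its level was higher at 180 than at 90 days, at 1.88-fold (log2 difference 0.91, SE 0.15, adjusted p = 0.000397). Every 180-day ovary exceeded every 90-day ovary, as was the case for 20.6% of probes. The ratio of the 180-day to the 90-day mean was 1.83 in LY mice and 1.86 in black mice.

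The other receptors lay at the limit of sensitivity. Agtr1b, the second type 1 receptor of rodents and a close copy of Agtr1a (chromosome 3), stood at 0.220, 0.137 and 0.262 units in 180-day old LY ovaries and at 0.189, 0.178 and 0.220 units in black ovaries. At 90 days it stood at 0.113, 0.182 and 0.204 units in LY ovaries and at 0.171, 0.138 and 0.214 units in black ovaries. It was under 0.2 units on 7 of 12 arrays, and its log2 differences were 0.03 at 180 days (SE 0.28, adjusted p = 0.977) and -0.09 at 90 days (adjusted p = 0.924). Probe sequences were not used here, so how far the Agtr1a and Agtr1b probes tell the copies apart was not tested. Mas1, the receptor of a shorter angiotensin fragment that opposes angiotensin II (chromosome 17), ranged from 0.0136 to 0.222 units and was under 0.2 units on 11 of 12 arrays. Its highest group mean was 0.166 units, in 180-day old LY ovaries, so it was not tested.

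Atp6ap2, which binds renin and prorenin at the cell surface and is also an accessory subunit of the vacuolar proton pump (X chromosome), did not separate LY from black ovaries either. It stood at 18.0, 19.4 and 20.8 units in 180-day old LY ovaries and at 18.4, 19.4 and 18.1 units in black ovaries. At 90 days it stood at 21.1, 20.9 and 23.0 units in LY ovaries and at 22.9, 28.5 and 21.2 units in black ovaries. The log2 difference was 0.06 at 180 days (SE 0.11, 95% interval -0.19 to 0.31, adjusted p = 0.881) and -0.15 at 90 days (adjusted p = 0.603). Atp6ap2 was lower at 180 than at 90 days, at 0.833-fold (log2 difference -0.26, SE 0.08, adjusted p = 0.0151). The 180-day ovaries lay below the 90-day ovaries without overlap, as did 16.0% of probes.

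**Figure D3:**
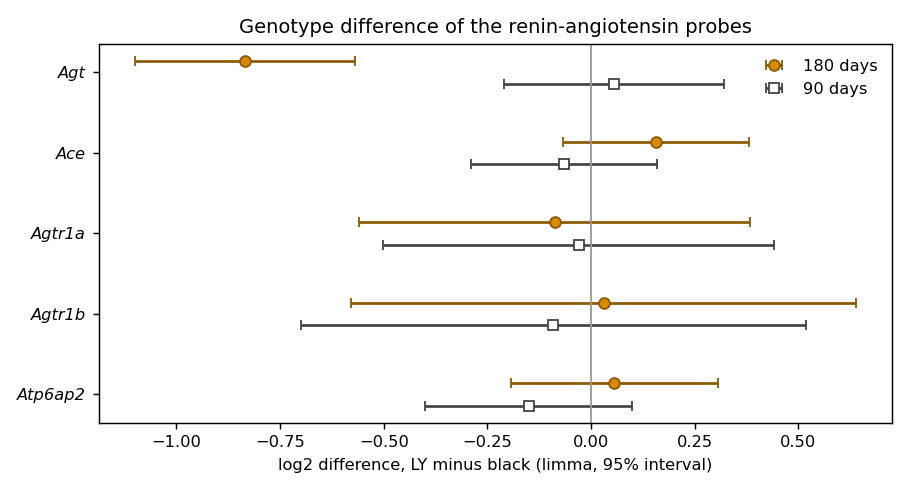
Fitted log2 difference of LY from black ovaries (horizontal axis) for the 5 renin-angiotensin probes tested, with 95% intervals from limma, at 180 days (filled circles) and 90 days (open squares). The interval of Agt at 180 days, -1.10 to -0.57, lies wholly below 0, and the other 9 intervals include 0.

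At each age 0 of the 5 members tested passed for LY against black mice, beside 0.0446% of all probes at 180 days and 0.0446% at 90 days. For age, 4 of 5 passed, Ace and Agtr1a higher and Agt and Atp6ap2 lower at 180 days, beside 59.3% of all probes. The ovaries of 180 and 90 days did not overlap for these 4 probes, as was the case for 36.6% of all probes. The highest 90-day value of Agt, Agtr1a and Atp6ap2 came from 90-day old black replicate 2, and leaving it out ended none of these 4 calls. Exact permutation p-values of the genotype difference over both ages were 0.545 for Ace, 0.71 for Agtr1a, 0.89 for Agtr1b and 0.615 for Atp6ap2.

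The wider pathway was covered by 3 lists, whose counts of calls for genotype are given beside the share of all probes. The lists are short, and whether their counts differ from those of all probes was not tested. Of 18 genes that make, trim or break down angiotensin peptides, 16 had a probe and 15 were tested, and 0 passed in either direction at 180 or 90 days, beside 0.0446% of all probes at each age. At an unadjusted p under 0.05, 3 of the 15 passed at 180 days, beside 12% of all probes, and 1 at 90 days, beside 13.3%. Their median log2 difference was 0.10 at 180 days and -0.18 at 90 days, where all 16323 genes had medians of 0.04 and -0.03. Thop1, a peptidase that can cut angiotensin I to a shorter fragment, averaged 3.24 ± 0.137 units in 180-day old LY mice and 2.61 ± 0.143 units in black mice (SD, n = 3 each, log2 difference 0.31, adjusted p = 0.264). At 90 days Thop1 averaged 6.34 ± 0.315 units in LY mice and 7.71 ± 0.887 units in black mice (log2 difference -0.28, adjusted p = 0.265). Every LY ovary lay below every black ovary, as was the case for 9.56% of probes. The interaction of Thop1 had an adjusted p of 0.135. Mme (neprilysin), which acts on the same peptide, averaged 0.595 ± 0.0328 units in LY mice and 0.494 ± 0.0246 units in black mice (log2 difference 0.27, adjusted p = 0.329). Prcp, which inactivates angiotensin II by removing its last residue, averaged 18.6 ± 0.766 units in LY mice and 15.5 ± 1.39 units in black mice (log2 difference 0.27, adjusted p = 0.414). The 180-day LY values of Thop1, Mme and Prcp lay above the black values without overlap, as did 14.2% of probes. Dpp3, which breaks down angiotensin II, averaged 1.65 ± 0.342 units in LY mice and 1.28 ± 0.0308 units in black mice (log2 difference 0.34, adjusted p = 0.438), and these groups overlapped.

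Between ages, 5 of the 15 processing genes were higher and 6 lower at 180 days, beside 33.8% and 25.4% of all probes. Thop1 stood at 0.416-fold at 180 days relative to 90 days (adjusted p = 1.19e-07) and Dpp3 at 0.500-fold (adjusted p = 2.65e-05), whereas Mme stood at 1.54-fold (adjusted p = 2.58e-05). Age cannot be told apart from the set of slides in these differences.

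Of 18 genes for partners of the angiotensin receptors and their downstream signalling, 16 were tested and 0 passed at either age, beside 0.0446% of all probes. At an unadjusted p under 0.05, 3 of the 16 passed at 180 days and 4 at 90 days, beside 12% and 13.3% of all probes. Their median log2 difference was 0.06 at 180 days and -0.04 at 90 days. Rgs2, which shortens signalling through the G protein used by the type 1 receptor, averaged 84.5 ± 6.06 units in 180-day old LY mice and 104 ± 4.29 units in black mice (log2 difference -0.31, adjusted p = 0.338). At 90 days it averaged 86.0 ± 10.5 units in LY mice and 70.9 ± 7.74 units in black mice (log2 difference 0.28, adjusted p = 0.341). Grk5, a kinase that desensitizes such receptors, averaged 9.12 ± 0.761 units in 180-day old LY mice and 7.68 ± 0.172 units in black mice (log2 difference 0.24, adjusted p = 0.408). At 90 days it averaged 5.72 ± 0.317 units in LY mice and 7.04 ± 0.899 units in black mice (log2 difference -0.29, adjusted p = 0.287), and the interactions of Rgs2 and Grk5 had adjusted p-values of 0.195 and 0.202. Cyp11b2, the aldosterone synthase of the adrenal cortex, was dim, at 0.524 ± 0.0887 units in LY mice and 0.381 ± 0.0681 units in black mice (adjusted p = 0.369). Mrgprd, a receptor related to Mas1, was likewise dim, at 0.584 ± 0.00465 units in LY mice and 0.441 ± 0.0411 units in black mice (adjusted p = 0.631). At 180 days 5 of these 16 genes were higher and 5 lower than at 90 days, again beside 33.8% and 25.4% of all probes.

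Of 11 genes for factors known to act on the Agt promoter in other tissues, 9 were tested and 0 passed for genotype at either age, beside 0.0446% of all probes. At an unadjusted p under 0.05, 0 of the 9 passed at 180 days and 1 at 90 days, beside 12% and 13.3% of all probes. The median log2 difference of the 9 was -0.01 at 180 days and -0.15 at 90 days. Stat3, which carries the acute-phase signal to the Agt gene in liver cells, averaged 22.6 ± 0.963 units in 180-day old LY mice and 23.0 ± 1.53 units in black mice (log2 difference -0.02, adjusted p = 0.943). Cebpd, another acute-phase factor, averaged 9.51 ± 1.55 units in LY mice and 8.35 ± 1.07 units in black mice (log2 difference 0.18, adjusted p = 0.597). Usf1, which binds E-box sequences, averaged 0.425 ± 0.0545 units in LY mice and 0.385 ± 0.0858 units in black mice (adjusted p = 0.757). Hnf4a, a liver factor, was under 0.2 units on 11 of 12 arrays (log2 difference 0.58, adjusted p = 0.814). Its mean reached 0.2 units only in 90-day old LY ovaries (0.224 units). At 180 days 0 of the 9 were higher and 3 lower than at 90 days, beside 33.8% and 25.4% of all probes. The lower ones include Usf1, at 0.339-fold (adjusted p = 1.42e-06), and Stat3, at 0.749-fold (adjusted p = 0.000197).

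**Figure D4:**
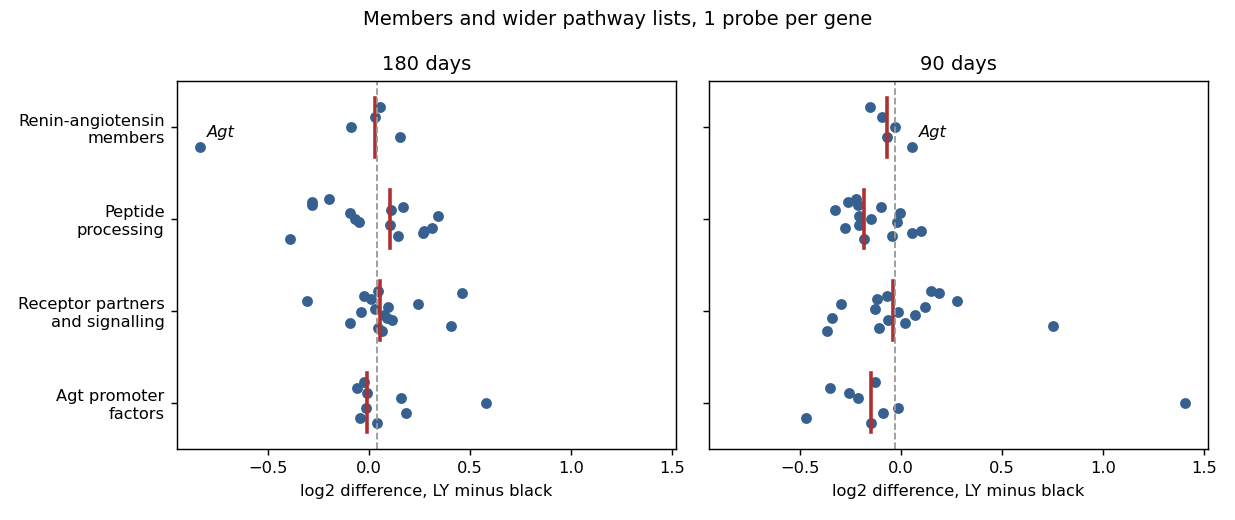
Fitted log2 difference of LY from black ovaries (horizontal axis) of the renin-angiotensin probes tested and of the genes of 3 wider lists, 1 probe per gene, at 180 days (left) and 90 days (right). Red bars are list medians and the dashed line is the median of all 16323 genes (0.04 at 180 days, -0.03 at 90 days); Agt at 180 days, at -0.84, lies apart from the other points at that age, which range from -0.39 to 0.58.

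Some markers of ovarian cell types were lower beside Agt in 180-day old LY ovaries. The summed level of 7 of 8 granulosa cell markers was 172 to 229 units in LY ovaries and 237 to 317 units in black ovaries, that of 7 of 7 oocyte markers 36.7 to 52.6 units in LY and 55.0 to 72.7 units in black ovaries, and that of 5 of 6 surface epithelium markers 37.0 to 45.3 units in LY and 47.0 to 52.8 units in black ovaries. In all 3 lists the LY range lay below the black range, as was the case for 8.36% of single probes. The granulosa sum was mostly Inhba, Inha and Hsd17b1. They averaged 85.9, 66.4 and 31.0 units in LY and 115, 83.1 and 44.4 units in black ovaries, and Inha overlapped between the groups. In the granulosa list Fshr, the FSH receptor, averaged 4.72 units in LY and 7.08 units in black ovaries (log2 difference -0.55, adjusted p = 0.422). The Fshr values of the groups overlapped. In the oocyte list Zp3, a zona pellucida protein, averaged 18.7 units in LY and 31.4 units in black ovaries (log2 difference -0.76, adjusted p = 0.172). Fshr and Zp3 had the lowest log2 differences of their lists, and Zp3 was the largest part of the oocyte sum. Amh in the granulosa list (0.10) and Zp1 in the oocyte list (0.03) went the other way. At 90 days the LY and black ranges of all 3 sums overlapped, with 267 to 391 units in LY and 270 to 362 units in black ovaries for the granulosa list. The surface epithelium sum rests mostly on Lgals7. At 90 days the other 4 markers, Krt8, Krt19, Upk1b and Msln, were each lower in every LY ovary than in any black ovary, as were 9.56% of probes. The log2 differences of these 4 were -0.50, -0.69, -0.54 and -0.83 (adjusted p-values from 0.113 to 0.289). At 180 days only Krt8 of the 4 was lower without overlap, as were 8.36% of probes. The summed level of 5 of 6 liver markers was 15.6 to 22.7 units in LY and 25.0 to 27.5 units in black ovaries at 180 days, most of it from Apoa1 and Ahsg. Of single probes, 8.36% were lower without overlap. Apoa1 averaged 12.8 units in LY and 19.6 units in black ovaries (log2 difference -0.65, adjusted p = 0.274), whereas Ahsg averaged 5.14 and 5.34 units. Fgb averaged lower in LY ovaries (-0.30) with overlap, and Ttr was higher in every LY ovary (means of 0.463 and 0.361 units). Alb (albumin), the defining marker, was under 0.2 units on all 12 arrays. Adipocyte markers (5 of 7) summed to 25.1 to 27.2 units in LY ovaries, inside the range of 19.7 to 44.2 units in black ovaries (median 22.8). Most of this was Fabp4 and Cidec, with log2 differences of 0.05 and 0.06. Lep was higher in every LY ovary (means of 0.325 and 0.0499 units, log2 difference 3.05, adjusted p = 0.307), as were 14.2% of probes. All 3 black values of Lep were under 0.2 units. Retn and Adipoq averaged lower in LY ovaries (log2 differences of -1.17 and -0.24), with overlap. No gene of these 5 lists passed for genotype at either age, beside 0.0446% of all probes at each age. The part of these markers in the Agt difference was not tested, and in whole ovaries fewer cells of a type and less RNA per cell cannot be told apart.

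Among the other lists at 180 days, sums were higher in LY than in black ovaries without overlap for endothelial, adrenal cortex and kidney markers. Of single probes, 14.2% were likewise higher without overlap, and the sums were not tested. The 6 endothelial markers summed to 34.2 to 35.4 units in LY and 32.1 to 33.8 units in black ovaries. The largest difference in units among them was that of Emcn (means of 12.1 in LY, 9.70 in black). Tie1 and Tek were lower in LY ovaries (log2 differences of -0.21 and -0.09), and Cdh5 was under 0.2 units on 9 of 12 arrays. For 3 of 4 adrenal cortex markers the sums were 0.820 to 0.996 units in LY and 0.586 to 0.794 units in black ovaries. Most of this was the dim Cyp11b2, also in the signalling list, and Cyp21a1 averaged 0.157 units in LY and 0.116 units in black ovaries. For 2 of 3 kidney markers they were 1.88 to 2.33 units in LY and 1.73 to 1.81 units in black, with Nphs1, a podocyte gene, under 0.2 units on all arrays. Sums overlapped for 3 of 4 theca markers (229 to 369 units in LY, 184 to 241 units in black; most of it Cyp17a1), 2 of 3 luteal markers (2.16 to 6.67 units in LY, 3.76 to 32.8 units in black) and 6 smooth muscle and pericyte markers (176 to 296 units in LY, 201 to 259 units in black). They also overlapped for 3 oviduct markers (1.86 to 2.29 units in LY, 1.83 to 4.66 units in black) and 2 of 4 macrophage markers (4.56 to 6.99 units in LY, 3.99 to 4.92 units in black). The other theca markers, Star and Cyp11a1, were higher in every LY ovary than in any black ovary at 180 days (log2 differences of 0.91 and 0.49, adjusted p = 0.168 and 0.220), as were 14.2% of probes. At 90 days the log2 differences of Star and Cyp11a1 were -0.50 and -0.37 (adjusted p = 0.360 and 0.292).

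The genes whose levels followed Agt most closely were found by Pearson's r over 12 arrays, after the mean of each age was taken from the log2 values, among 18885 probes. They were C2cd5 (r = 0.94), Grin2c (0.93), Sirt3 (0.92), Zfp532 (0.92) and 5330411J11Rik (0.91). Grin2c, a subunit of the NMDA receptor, averaged 0.435 units in 180-day old LY mice and 0.782 units in black mice, and Sirt3, a mitochondrial deacetylase, averaged 3.68 units in LY mice and 4.75 units in black mice. The most opposite were Yars2 (r = -0.96), Tmem82 (-0.93), Spcs2 (-0.93), Selp (-0.90) and Optc (-0.90). Selp, the adhesion protein P-selectin, averaged 2.41 units in 180-day old LY mice and 1.46 units in black mice. These r values describe arrays that share their grouping by genotype, and none of the 10 genes passed the test at 180 days (adjusted p-values from 0.114 to 0.250).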

How the data were processed

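Whole ovaries of 12 mice, 3 in each of 4 groups, were measured on 1 array each. The authors scanned the slides with GenePix, used the CodeLink software for background correction and GeneSpring to scale each slide, and deposited relative intensity values on a linear scale. The per-gene median normalization named in the methods is not part of these values. An array had 166 to 503 missing and 67 to 144 negative values.

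Values were rescaled to an array median of 1, floored at 0.01 units and log2-transformed, so differences of dim probes depend on this floor. A probe was tested if its mean reached 0.2 units in any of the groups and every group had a value (31359 of 36227). limma 3.58.1 in R 4.3.3 fitted a mean per group over the 12 arrays (8 residual and 2.46 prior degrees of freedom), with Benjamini-Hochberg adjustment over all probes tested and a threshold of 0.05. Adjusted p-values are from this fit unless another test is named. Intervals cover the spread between these mice, and their number limits the precision. The procedure was tested on simulated data.

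The members, gene lists and tests were chosen with earlier results of these data known. All probes of the 8 members are named, and of each wider list up to 4 genes with the smallest p at 180 days, each by its brightest probe. The marker genes named singly, and the examples among the genes most like Agt or most opposite to it, were chosen after their values were seen. Gene names are those of the platform annotation, and 13931 probes carry none. Promoters and coordinates come from RefSeq tables for GRCm38.p6, which hold 7 of the members' promoters (none for Agtr1a). Alternatives covered the floor, a pseudocount of 0.1 units, quantile normalization, the filter, the prior, array weights, a replicate block, arrays of 1 age, a t-test as in the methods, and leaving out each array.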

Additional observations from a re-analysis of the deposited data

How the results depend on the processing

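The count of probes called for genotype depended on the settings, whereas Agt kept its direction at 180 days throughout. Counts are given for 180 days, 90 days, the interaction and both ages in that order. They were 14, 14, 0 and 2 as reported, 52, 132, 18 and 56 with a floor of 0.2 units, 33, 25, 21 and 14 with a pseudocount of 0.1 units, 34, 118, 55 and 51 with a mean of 0.2 units required in all 4 groups, 111, 200, 198 and 95 with an intensity trend, and 157, 3, 2 and 10 with array quality weights. Quantile normalization called 2 for the interaction, and without a filter 1 was called at 180 days, 4 at 90 days and 1 over both ages. Arrays of 1 age only gave 2 at each age, and the methods' t-test gave 0 at 180 and 1 at 90 days after Benjamini-Hochberg adjustment and 4202 and 2799 at an unadjusted 0.05. With the replicate number as a block the counts were 3, 2, 0 and 1 and Agt at 180 days had an adjusted p of 0.104. Deviations of mice with the same number correlated at -0.0939 to 0.148, so the numbers were not taken to pair the mice. Leaving out each array gave 1 to 21, 1 to 66, 0 to 35 and 1 to 6. The cause of these shifts was not tested.

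Of the members, 1 (Agt) was called at 180 days with a floor of 0.2 units, a pseudocount, quantile normalization, the filter on all 4 groups, the trend, the weights and the unadjusted t-test, and 1 for the interaction with the trend. Leaving out each array called 0 or 1 at 180 days, and the exact p of Agt over both ages ranged from 0.03 to 0.095, with log2 differences from -0.45 to -0.33. All 4 age calls held in every fit. Differences that were not called changed sign for Agtr1b over both ages with a floor of 0.2 units (0.053), for Atp6ap2 at 180 days (-0.00842) and Agtr1a at 90 days (0.00155) with quantile normalization, and with array weights for Agtr1b at 180 days (-0.12), at 90 days (0.025) and in the interaction (-0.14) and Agtr1a in the interaction (0.00788). When each array was left out, Agtr1b ranged from -0.034 to 0.30 at 180 days, -0.26 to 0.17 at 90 days, -0.14 to 0.39 in the interaction and -0.12 to 0.10 over both ages (-0.13 to 0.10 in the exact test). Agtr1a ranged from -0.18 to 0.033, -0.17 to 0.23, -0.32 to 0.084 and -0.13 to 0.070 in the same order, Atp6ap2 from -0.092 to 0.014 over both ages and Agt from -0.064 to 0.18 at 90 days. Agtr1b could not be fitted without 2 of the arrays, in turn, or with the filter on all 4 groups. Signal near 0.2 units limits what can be said of Agtr1b and Mas1.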
